A study of Mus musculus with 56 samples.

Results

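The glucokinase regulatory protein (GKRP) is encoded by Gckr, and livers of mice heterozygous at its residue 446 were compared with livers of mice carrying proline on both alleles, all given a glucokinase activator (GKA). The 18 samples were selected by their labels, 8 PL mice (mice 29 to 36) and 10 PP mice (mice 11 to 20), out of 56 livers sequenced in all. Both groups were male, had a high-fat diet (45% fat) with sugar in the drink (10% glucose and 5% fructose) for 20 weeks, and received the same GKA dose of 3 mg/kg. PL mice carry 1 allele with leucine (L) and 1 with proline (P) at residue 446 in a knock-in line on the C57BL/6N background, and PP mice are the wild type of that line. The labels give no age other than the time on diet, and no litter, cage, harvest date or hour of killing, so no comparison within batches was possible and such differences cannot be told apart from genotype.

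GKRP binds glucokinase in the hepatocyte nucleus and holds it inactive, and a GKA acts on glucokinase itself. Glucokinase makes glucose 6-phosphate, the entry point of glycolysis, glycogen synthesis and lipogenesis, and glucose metabolites raise transcription through ChREBP. Cholesterol is built in the same cells from acetyl-CoA along the mevalonate pathway, whose enzymes are controlled together by the transcription factor SREBP2, itself held in the endoplasmic reticulum (ER) by Scap and the Insig proteins when sterols are plentiful. The ER and the cytosol each hold a set of chaperones whose genes respond together to unfolded protein, and many liver genes also follow the circadian clock.

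Library totals were between 5189852 and 8093368 reads (from 5672197 in PL and up to 7730551 in PP), which limits what can be said of genes with few reads. Within each group, the median correlation of a mouse with its group was between 0.932 and 0.952. Hepatocyte genes such as Alb and Apoa1 made up summed values of 93378 to 138595 counts scaled to library size (CPM) in every mouse, and none of the 10 hepatocyte markers had an unadjusted p below 0.05. Marker sums of other cells were uneven within PL: mouse 29 had a macrophage sum of 1105 CPM against 315 to 717 CPM in the other 17 mice, and mouse 35 a red blood cell sum of 1180 CPM against 374 to 665 CPM. In whole liver, fewer cells of a type and less RNA per cell cannot be told apart.

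The targeted gene had close mean values in both groups. Gckr (chromosome 5, 31454787 to 31484658, GRCm39) averaged 168 ± 17.3 CPM (SD) over the PP mice and 163 ± 15.1 CPM over the PL mice, with a log2 fold change (PL against PP) of -0.04 ± 0.08 (SE). The P446L codon change cannot be read from these values, so they do not check the genotype. Of the Gckr reads, the protein-coding transcript Gckr-202 took 57.6% ± 7.26 in PP and 52.5% ± 10.8 in PL, and the retained-intron transcript Gckr-207 took 34.1% ± 6.93 and 34.2% ± 5.63 (SD). The exact permutation tests, two-sided, gave adjusted p = 0.522 and 0.969 over the 2 transcripts, so neither difference exceeded the spread between mice. As shares of TPM, which is scaled by effective length, Gckr-202 took 38.4% ± 15.2 in PP and 34.25% ± 18.4 in PL (SD). Gckr-207 took 11.4% ± 4.35 and 11.0% ± 6.14 of TPM.

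Across all expressed genes, no gene separated the 2 groups after correction in the main edgeR fit, while DESeq2 and an edgeR fit of all 6 groups called some. In the edgeR quasi-likelihood fit, 0 of 10520 genes (0%) met both conditions of a call, an adjusted p (Benjamini-Hochberg) under 0.05 and a PL/PP ratio outside 0.7 to 1.3, and the smallest adjusted p was 0.113. At an unadjusted p below 0.05 there were 862 genes (8.19%), 409 higher in PL (3.89%) and 453 lower (4.31%), and 49.9% of all genes had a log2 fold change above 0. DESeq2 on the same counts called 31 genes (0.295%), 17 higher and 14 lower. In simulated counts for these groups, edgeR called 34% of the genes changed at a fold of 1.5 and 82.7% at a fold of 2. These counts were drawn independently for each gene, without differences that mice share across genes, so the percentages may not hold for the data. Values of PL and PP did not overlap for 2 genes (0.019%), the chaperone partner Fkbp4 and the fructose transporter Slc2a5. The results below are therefore described by values and by counts of members at an unadjusted p below 0.05, set against 3.89% higher and 4.31% lower among all genes. Lists and members were chosen with earlier results of these data known, so their shares are descriptions and not independent evidence.

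**Figure D1:**
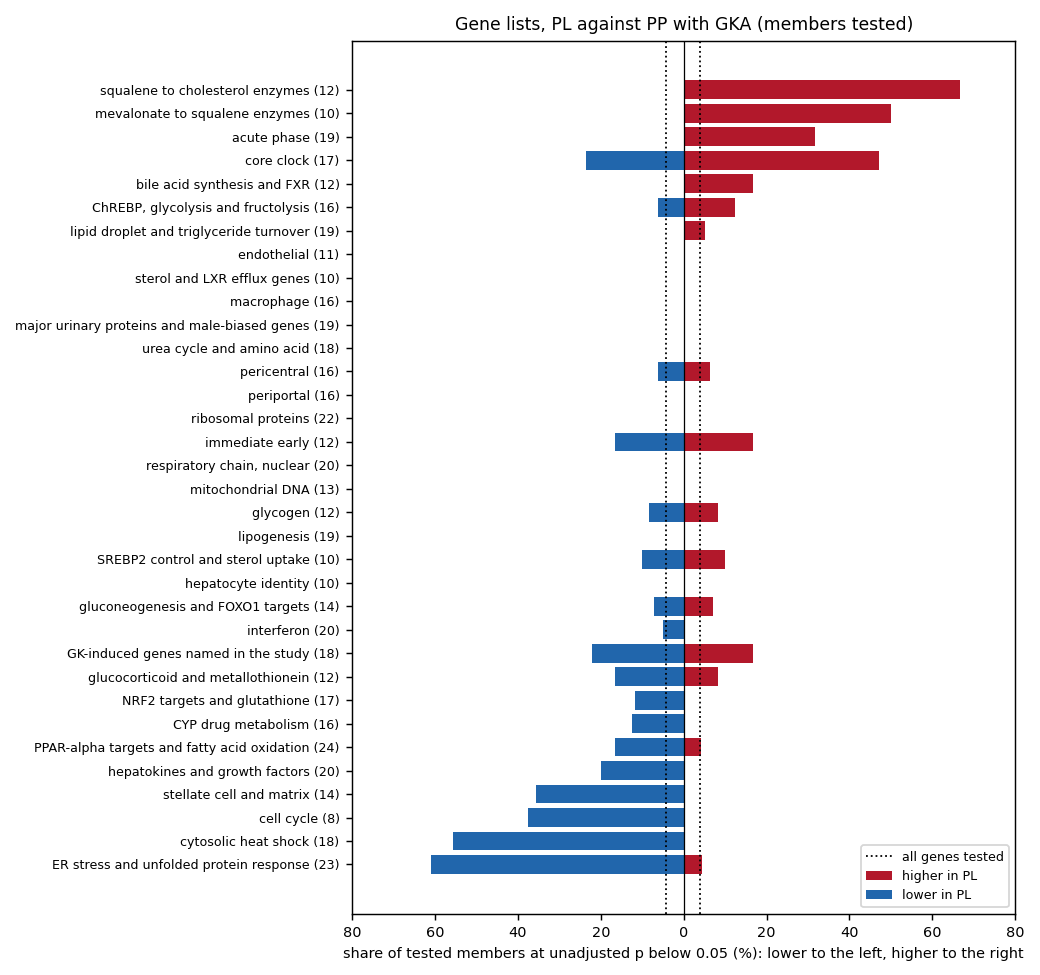
Share of tested members at an unadjusted p below 0.05 (%) in gene lists with at least 8 tested members, higher in PL to the right and lower to the left, with dotted lines at the shares among all genes (3.89% and 4.31%). Cholesterol synthesis enzymes reach 66.7% higher, and ER stress genes 60.9% and cytosolic heat shock genes 55.6% lower. Lists and members were chosen with earlier results of these data known.

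The enzymes of cholesterol synthesis had higher mean values in PL. Of the 10 enzymes from acetyl-CoA to squalene, 9 had a log2 fold change above 0 and 5 were higher at an unadjusted p below 0.05 (50%), with a median log2 fold change of 0.51. Of the 12 enzymes from squalene to cholesterol, 10 were above 0 and 8 were higher at that threshold (66.7%), with a median of 0.59. None of the 22 enzymes was lower at an unadjusted p below 0.05, and the median of all genes was at 0.00. In the edgeR fit of these 2 groups none passed the adjusted threshold, whereas in DESeq2 Idi1, Fdft1, Msmo1, Nsdhl and Hsd17b7 did. With all 6 groups in 1 edgeR fit, these genes and also Mvk and Sqle were called. The control region of Hmgcs1, which encodes the enzyme that makes HMG-CoA, is shown because it was the only promoter among the 17 of these enzymes found in the RefSeq promoter table to hold the sterol regulatory element TCACNCCAC on either strand; 1.41% of 8102 promoters of tested genes held it. The 250 bases before the start are given 5′ to 3′ in GRCm39, with the element in capitals.
Hmgcs1, chr13:120151637-120151886, plus strand: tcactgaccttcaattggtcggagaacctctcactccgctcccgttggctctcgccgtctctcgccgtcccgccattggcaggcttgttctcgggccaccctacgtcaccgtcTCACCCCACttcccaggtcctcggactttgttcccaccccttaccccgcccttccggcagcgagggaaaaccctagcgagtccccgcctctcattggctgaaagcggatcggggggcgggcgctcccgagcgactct

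In the first block of the pathway, Idi1 (chromosome 13, 8935537 to 8942487), the isomerase that makes dimethylallyl diphosphate, had the clearest difference. Idi1 was between 19.4 and 33.8 CPM in PP (median 26.1 CPM) and between 15.6 and 125 CPM in PL (median 61.0 CPM). PL mice 31 to 34 had 114, 125, 102 and 79.4 CPM and mice 35 and 36 had 42.7 and 35.1 CPM, all 6 above every PP mouse, while mice 29 and 30 with 28.6 and 15.6 CPM were within or below the PP range. The Idi1 log2 fold change was 1.35 ± 0.30 (edgeR adjusted p = 0.129, DESeq2 adjusted p = 0.00447), with 7 of 8 PL mice above the PP mean. Mvk, mevalonate kinase, averaged 4.33 ± 0.652 CPM in PP and 8.21 ± 4.17 CPM in PL, a log2 fold change of 0.92 ± 0.24. Pmvk, the next kinase, had a log2 fold change of 0.59 ± 0.27, and Fdps, which makes farnesyl diphosphate, one of 0.74 ± 0.26. Fdft1, squalene synthase and the committed step to sterols, ranged from 26.8 to 46.1 CPM in PP (median 34.6 CPM) and from 28.7 to 94.4 CPM in PL (median 56.5 CPM). The Fdft1 log2 fold change was 0.73 ± 0.19 (edgeR adjusted p = 0.236). Hmgcs1 had a log2 fold change of 0.43 ± 0.26, Mvd, the decarboxylase of this block, 0.41 ± 0.37, and Acat2, which joins acetyl-CoA units, 0.26 ± 0.17, all with an unadjusted p above 0.05. Ggps1, which leads away from sterols to geranylgeranyl diphosphate, was the single enzyme of this block below 0, at -0.10 ± 0.15.

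In the second block, Sqle, squalene epoxidase (chromosome 15, 59186869 to 59203043), ranged from 0.957 to 10.2 CPM in PP (median 5.12 CPM) and from 1.56 to 56.2 CPM in PL (median 15.3 CPM). PL mice 31 to 34 had 45.1, 56.2, 23.3 and 23.1 CPM and lay above every PP mouse, and the other 4 PL mice were within the PP range. The Sqle log2 fold change was 1.98 ± 0.52 (adjusted p = 0.238). Msmo1, a sterol demethylating oxidase, averaged 35.8 ± 9.88 CPM in PP and 73.2 ± 37.4 CPM in PL, a log2 fold change of 1.03 ± 0.27. Nsdhl, the next enzyme of demethylation, was at 20.7 ± 6.46 and 44.5 ± 27.1 CPM, a log2 fold change of 1.10 ± 0.30. Hsd17b7, which completes that step, was at 21.1 ± 2.91 and 32.1 ± 10.2 CPM, a log2 fold change of 0.61 ± 0.15. In each of these genes the SD among PL mice was more than that among PP mice, and their ranges overlapped. The log2 fold changes of Cyp51, lanosterol demethylase, Tm7sf2, a sterol reductase, and Dhcr7, the final reductase, were 0.77 ± 0.25, 0.63 ± 0.18 and 0.56 ± 0.20. Lss, lanosterol synthase, was at 0.48 ± 0.19, a direction lost (-0.03) when transcript lengths were included as offsets. Ebp at 0.27 ± 0.15, Sc5d at 0.18 ± 0.13 and Lbr at -0.14 ± 0.15 had unadjusted p above 0.05. Exons of Acat2, Hmgcs1, Ggps1, Fdft1, Sqle, Lss, Cyp51 and Nsdhl overlap those of another expressed gene on the opposite strand, and the strand used in counting was not given in the sources used here. Exons of Tm7sf2 share 532 bases with those of Vps51 on the same strand, so reads may be divided uncertainly between them.

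The difference rested mainly on some of the PL mice. The mean log2 CPM over all 22 enzymes was between 4.49 and 5.23 in PP (4.90 ± 0.209, SD) and between 4.35 and 6.22 in PL (5.38 ± 0.631). Without mice 31 and 32, an alternative chosen after the data were seen, the medians of the 2 blocks were 0.21 and 0.30 on the log2 scale, with 3 of 10 and 5 of 12 enzymes higher at an unadjusted p below 0.05. Leaving out mouse 32 alone gave a median of 0.34 for the first block, and leaving out mouse 30, the lowest, raised the count there to 8 of 10. In the fit with a clock component as a covariate, described further on, the medians were 0.76 and 0.72. With transcript length offsets, Lss and Ebp turned negative and Ggps1 and Lbr turned positive.

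**Figure D2:**
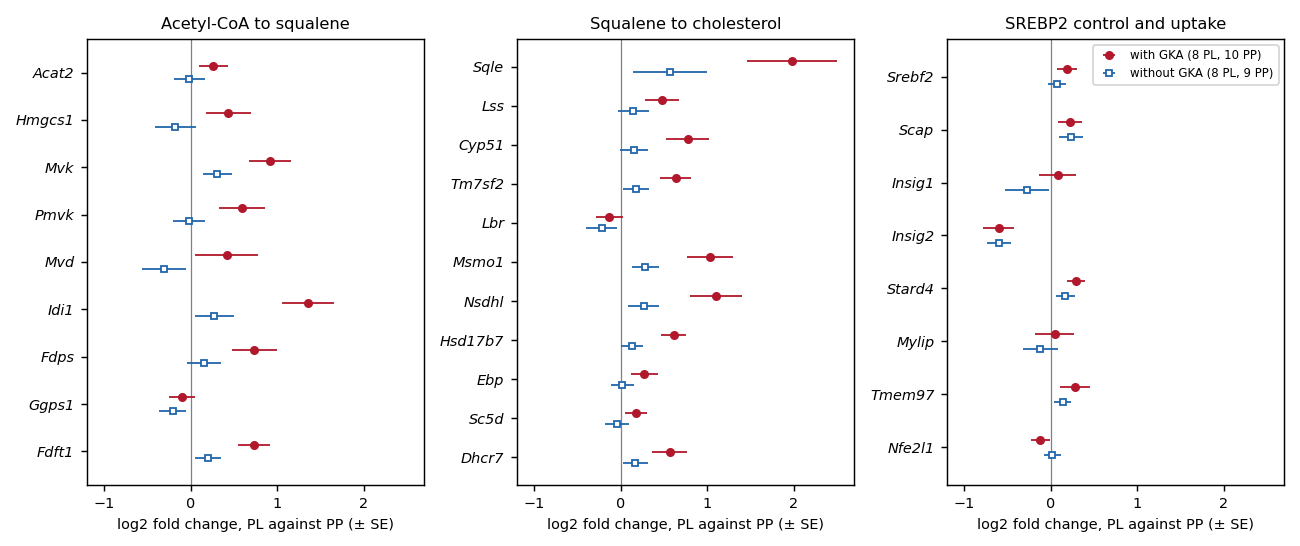
Log2 fold change of PL against PP (± SE) for cholesterol synthesis enzymes and SREBP2 control genes, with GKA (filled circles, 8 PL and 10 PP mice) and without GKA (open squares, 8 PL and 9 PP mice). With GKA most enzymes lie to the right of 0, Sqle farthest at 1.98, while Insig2 lies at -0.60 in both settings.

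The genes that control SREBP2 and take up sterol form a list beside that of the enzymes. Of 10 tested, 8 had a log2 fold change above 0 with a list median of 0.14, and only Stard4 was higher and only Insig2 lower at an unadjusted p below 0.05 (10% each). With the clock component as a covariate, 3 were higher and 0 lower, with a median of 0.08. In PL against LL with GKA, which shares the PL mice, 7 were higher and 0 lower with a median of 0.34, and in LL against PP with GKA, which shares the PP mice, 0 were higher and 3 lower with a median of -0.13. Stard4, a sterol carrier, averaged 51.9 ± 7.12 CPM in PP and 63.4 ± 9.2 CPM in PL, a log2 fold change of 0.29 ± 0.10. Insig2, which retains Scap in the ER, ranged from 158 to 456 CPM in PP (median 371 CPM) and from 155 to 265 CPM in PL (median 221 CPM). All 8 PL mice were below the PP mean of Insig2, and the log2 fold change was -0.60 ± 0.18 (adjusted p = 0.312). With the clock component as a covariate, every tested member of the list, Insig2 included, was at -0.19 or above. For LL against PP with GKA, Insig2 was at -0.19 ± 0.22. Insig1, the isoform that SREBP2 itself induces, was at 221 ± 50.6 and 233 ± 93.0 CPM, a log2 fold change of 0.08 ± 0.21 that turned to -0.01 without mouse 32 or without mouse 33. Srebf2, the gene of SREBP2, at 0.19 ± 0.11 and Scap at 0.22 ± 0.14 had unadjusted p above 0.05. So did Tmem97, a sterol-responsive ER protein, at 0.28 ± 0.17, Mylip, a ubiquitin ligase induced by sterols, at 0.04 ± 0.23, and Nfe2l1, an ER-resident transcription factor, at -0.12 ± 0.11.

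Without GKA, PL and PP mice, all separate animals, differed less in these enzymes. There, 0 of 10 and 0 of 12 enzymes had an unadjusted p below 0.05 (5.09% of 10580 genes were higher and 5.02% lower), and the medians were -0.02 and 0.15. The direct test of whether GKA altered the PL difference, an interaction term over 35 mice, called 0 of 11152 genes (0%) in edgeR, with 1.85% of genes above and 1.51% below 0 at an unadjusted p below 0.05. For the enzymes, 3 of 10 (among them Idi1 and Fdft1) and 3 of 12 (Msmo1, Nsdhl and Hsd17b7) had a positive interaction at an unadjusted p below 0.05, with log2 estimates between 0.48 and 1.09 and adjusted p of 1.00. LL mice carry leucine on both alleles, and comparisons with LL mice given GKA share animals with the one above, so values are given side by side only. For LL against PP with GKA (25 genes called, 0.239% of 10460), the 2 enzyme medians were -0.25 and -0.19, with 0 enzymes higher and 5 and 2 lower (5.27% and 5.11% of all genes). For PL against LL with GKA (0 genes called, 0% of 10491), they were 0.91 and 0.68, with 9 of 10 and 10 of 12 higher and 0 lower (4.8% and 3.79% of all genes). Idi1 averaged 29.3 ± 8.68 CPM in PP, 35.4 ± 13.4 in PL and 19.7 ± 6.23 in LL without GKA, and 25.2 ± 8.38 in LL with GKA.

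**Figure D3:**
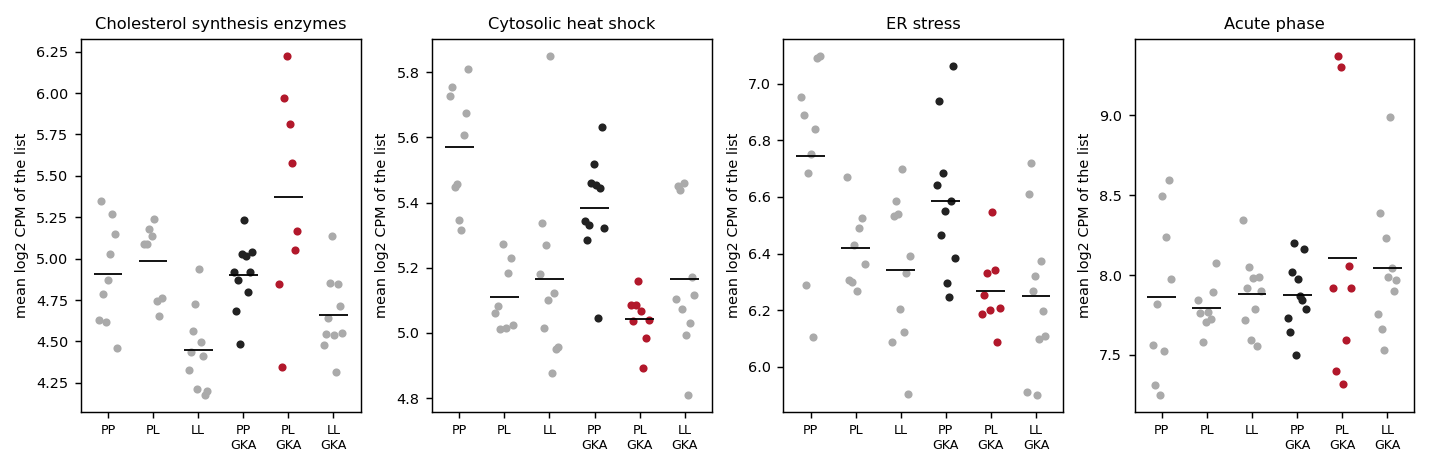
Mean log2 CPM of 4 gene lists in each mouse of the 6 groups (9, 8, 10, 10, 8 and 10 mice, with PP mouse 7 without GKA left out), horizontal lines marking group means. PL mice with GKA (red) reach 6.22 for cholesterol enzymes, and their heat shock values lie between 4.89 and 5.16, below 9 of the 10 PP mice with GKA (black).

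Cytosolic heat shock genes had lower values in PL. Of 18 chaperone genes and co-chaperones tested, 0 were higher and 10 lower at an unadjusted p below 0.05 (55.6%), with a list median of -0.37. Hsph1, a chaperone that serves as exchange factor for Hsp70 (chromosome 5, 149537636 to 149560156), ranged from 16.5 to 58.0 CPM in PP (median 39.8 CPM) and from 16.2 to 23.6 CPM in PL (median 18.4 CPM). PL values of Hsph1 were thus confined to the low end of the PP range, which a single PP mouse, 17, shared, and the log2 fold change was -0.96 ± 0.19 (edgeR adjusted p = 0.113). Without PP mouse 17, Hsph1 was the 1 gene that edgeR called. The inducible Hsp90aa1 ranged from 162 to 308 CPM in PP (median 206 CPM) and from 99.0 to 180 CPM in PL (median 124 CPM), a log2 fold change of -0.67 ± 0.14. Its constitutive relative Hsp90ab1 was at 626 ± 63.2 CPM in PP and 478 ± 45.1 CPM in PL, a log2 fold change of -0.39 ± 0.08. Reads may be divided uncertainly between these related genes. Stip1, which links Hsp70 to Hsp90, was at -0.51 ± 0.11, Chordc1, a further Hsp90 partner, at -0.46 ± 0.10 and Hspa4l, an Hsp70 relative, at -0.51 ± 0.15 on the same scale. Hspa8, the constitutive Hsp70, was at -0.36 ± 0.12, its co-chaperones Dnajb1 at -0.39 ± 0.13, Bag3 at -0.36 ± 0.16 and Dnaja1 at -0.19 ± 0.09, the last turning to 0.04 with length offsets. Fkbp4, an immunophilin bound to Hsp90 and not in the list, ranged from 121 to 150 CPM in PP (median 132 CPM) and from 94.7 to 120 CPM in PL (median 104 CPM). The ranges of Fkbp4 did not meet, and its log2 fold change was -0.33 ± 0.07 (adjusted p = 0.126). The heat shock element GAANNTTCNNGAA was in 2 of 14 promoters of the list found in the RefSeq table (0.469% of all). These were the promoters of Hspd1 and Hspe1, whose log2 fold changes of -0.07 ± 0.06 and -0.04 ± 0.11 had unadjusted p above 0.05.

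The same list was lower in PL in the animals that had no GKA. There 12 of 18 genes were lower and 0 higher at an unadjusted p below 0.05, the median was -0.40, and Hsph1, Hspa8 and Dnajb1 were among the 16 genes called (0.151%) in that comparison. Hsph1 averaged 48.5 ± 12.1 CPM in PP and 24.9 ± 4.33 CPM in PL without GKA, a log2 fold change of -0.96 ± 0.15 (adjusted p = 0.0158). The Hsph1 interaction with GKA was -0.01 on the log2 scale with a p of 0.979 before adjustment. Hspa8 had a log2 fold change of -0.72 ± 0.12 and Dnajb1 of -0.82 ± 0.14 without GKA, and 3 of 18 genes had a positive interaction at an unadjusted p below 0.05. For LL against PP with GKA, which shares the PP mice, 9 of 18 were lower, with a list median of -0.19. With transcript length offsets in PL against PP with GKA, 5 heat shock genes were lower and 1 higher.

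ER chaperones and folding enzymes were also lower. Of 23 genes of the unfolded protein response tested, 14 were lower (60.9%) and 1, Trib3, higher (4.35%) at an unadjusted p below 0.05, with a list median of -0.31. Creld2, an ER stress-induced disulfide isomerase (chromosome 15, 88703795 to 88710890), ranged from 17.8 to 84.5 CPM in PP (median 31.1 CPM) and from 10.8 to 21.6 CPM in PL (median 16.0 CPM). The groups overlapped through 2 PP mice with under 20 CPM, all 8 PL mice were below the PP mean, and the log2 fold change was -1.22 ± 0.28 (edgeR adjusted p = 0.131, DESeq2 adjusted p = 0.00447). Hspa5, the main ER chaperone BiP, ranged from 461 to 1556 CPM in PP (median 788 CPM) and from 411 to 761 CPM in PL (median 501 CPM), a log2 fold change of -0.74 ± 0.20. The spread of Hspa5 was 352 CPM (SD) in PP and 106 CPM in PL. Hyou1, an exchange factor of BiP, was at -0.88 ± 0.28, Sdf2l1, a BiP cofactor, at -0.86 ± 0.26, Manf, which binds BiP, at -0.65 ± 0.19, and the disulfide isomerase Pdia4 at -0.59 ± 0.17. Smaller values were those of Hsp90b1, the ER Hsp90, at -0.42 ± 0.15, Pdia3 at -0.30 ± 0.09, Pdia6 at -0.22 ± 0.10, Dnajc3 at -0.34 ± 0.12 and Dnajb11 at -0.25 ± 0.11, which turned to 0.26 with length offsets. Of the genes for ER-associated degradation, Sel1l was at -0.54 ± 0.23, Edem1 at -0.32 ± 0.11 and Herpud1 at -0.31 ± 0.11. Trib3, a pseudokinase induced through Atf4, averaged 3.81 ± 1.78 CPM in PP and 5.71 ± 1.38 CPM in PL. The transcription factor gene Xbp1 had a log2 fold change of 0.08 ± 0.15. Exons of Manf overlap those of Rbm15b on the same strand. Exons of Hspa5, Xbp1, Manf, Dnaja1 and Hsp90ab1 overlap those of another expressed gene on the opposite strand.

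The promoters of Creld2 and Hspa5 are shown because these genes had the smallest p among list members holding the ER stress response element. The element is CCAATN9CCACG, in which the bases between the outer parts are free. It was in 7 of 19 promoters of the list found in the RefSeq table (36.8%), those of Hspa5, Hsp90b1, Dnajc3, Pdia6, Calr, Canx and Creld2, and in 0.197% of 8102 promoters of tested genes. Hspa5, Hsp90b1, Dnajc3, Pdia6 and Creld2 were lower at an unadjusted p below 0.05, and the genes of calreticulin and calnexin, Calr at -0.18 ± 0.09 and Canx at -0.16 ± 0.08, were not. Capitals mark the element, which reads on the minus strand in Creld2 and on the plus strand in Hspa5.
Creld2, chr15:88703599-88703848, plus strand: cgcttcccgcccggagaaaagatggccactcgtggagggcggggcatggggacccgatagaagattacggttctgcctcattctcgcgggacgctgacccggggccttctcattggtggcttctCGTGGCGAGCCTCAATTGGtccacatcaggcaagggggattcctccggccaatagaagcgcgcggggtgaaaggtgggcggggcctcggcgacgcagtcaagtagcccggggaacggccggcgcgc
Hspa5, chr2:34661852-34662101, plus strand: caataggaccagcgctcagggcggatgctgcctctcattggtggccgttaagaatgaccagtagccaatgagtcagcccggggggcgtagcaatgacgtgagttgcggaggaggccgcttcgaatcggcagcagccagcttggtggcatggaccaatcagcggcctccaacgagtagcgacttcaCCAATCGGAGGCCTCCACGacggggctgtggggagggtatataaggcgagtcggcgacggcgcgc

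Without GKA, 11 of 23 genes of the list were lower and 1 higher, with a median of -0.27, and for LL against PP with GKA 13 were lower and 0 higher, with a median of -0.28. None of the ER genes was called by edgeR in PL against PP without GKA. Creld2 had a log2 fold change of -1.06 ± 0.31 without GKA, from 53.6 ± 29.4 CPM in PP to 25.7 ± 7.9 CPM in PL. With a clock component, described next, as a covariate, the ER list median was -0.12, with 2 genes lower and 0 higher at an unadjusted p below 0.05. In that fit the heat shock list had a median of -0.30, with 8 of 18 lower. The component itself averaged 2.17 in PL and -1.74 in PP, so clock and genotype cannot be told apart in this fit. With transcript length offsets, 6 ER genes were lower and 0 higher, with a median of -0.33.

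**Figure D4:**
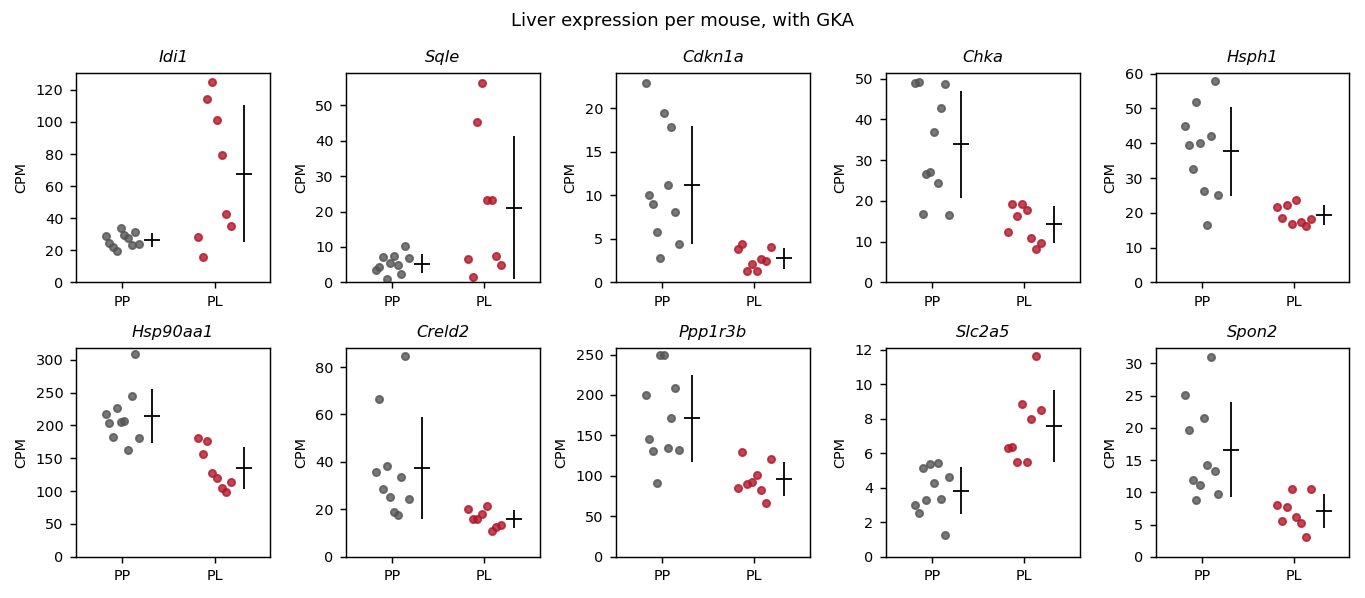
CPM in each mouse given GKA for 10 named genes (PP, 10 mice, grey; PL, 8 mice, red), with mean ± SD to the right of each group. PL values of Hsph1 lie between 16.2 and 23.6 CPM, Slc2a5 does not overlap, and Idi1 and Sqle are high in part of the PL mice.

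Circadian clock genes differed in both directions. Of 17 tested, 8 were higher (47.1%) and 4 lower (23.5%) in PL at an unadjusted p below 0.05. On the positive arm, Bmal1 ranged from 1.71 to 15.9 CPM in PP (median 5.07 CPM) and from 1.41 to 4.52 CPM in PL (median 2.61 CPM), with a log2 fold change of -1.44 ± 0.43. Its partner Clock was at -0.40 ± 0.21. Of the repressors that feed back on this pair, Cry1 was at -1.09 ± 0.35, Cry2 at 0.37 ± 0.14, Per3 at 0.97 ± 0.44, Per1 at 0.19 ± 0.37 and Per2 at 0.08 ± 0.19. The E-box CACGTG is the site through which the BMAL1 and CLOCK proteins act. It was in 4 of 13 clock promoters found (Per1, Cry1, Tef and Bhlhe41, 30.8%) against 10.3% of all. The promoter of Cry1 is shown because Cry1 had the smallest p of these 4 genes. Capitals mark the E-box.
Cry1, chr10:85020919-85021168, minus strand: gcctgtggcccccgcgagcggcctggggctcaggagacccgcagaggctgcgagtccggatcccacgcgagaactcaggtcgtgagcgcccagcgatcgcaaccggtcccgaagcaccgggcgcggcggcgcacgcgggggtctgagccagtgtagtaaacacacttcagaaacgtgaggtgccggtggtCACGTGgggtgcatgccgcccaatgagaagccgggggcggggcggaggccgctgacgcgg

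The nuclear receptors that set the level of Bmal1 were at 0.53 ± 0.25 for Nr1d1, 0.40 ± 0.19 for Nr1d2 and -0.15 ± 0.12 for Rora. Among output factors, Dbp ranged from 0.423 to 60.7 CPM in PP (median 9.81 CPM) and from 32.7 to 81.3 CPM in PL (median 47.8 CPM), a log2 fold change of 1.27 ± 0.59. Dbp was below the lowest PL mouse in 7 PP mice, and PP mice 13, 14 and 20 were within the PL range. Its relatives Tef and Hlf were at 0.64 ± 0.30 and 0.41 ± 0.16, the latter at -0.01 with length offsets, and their antagonist Nfil3 at -0.76 ± 0.27. Bhlhe40, a further E-box repressor, was at 0.58 ± 0.17 and Bhlhe41 at 1.46 ± 0.48. Npas2 and Ciart did not pass the filter on low counts. Exons of Clock, Nr1d1 and Dbp overlap those of another expressed gene on the opposite strand.

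The clock values of the PP mice were more spread than those of the PL mice. A clock component, the first principal component of the 17 genes (61.4% of their variance, no unit), ran from -6.66 to 2.97 in PP (SD 3.32) and from 0.74 to 3.71 in PL (SD 1.20). As the labels give no hour of killing, genotype and time of day cannot be told apart here. With the component as a covariate, by construction 0 clock genes were left at an unadjusted p below 0.05. The signs of Bmal1, Clock, Per1, Per2, Per3, Cry1, Nr1d1, Nr1d2, Tef and Nfil3 turned in that fit. Leaving out single mice took the count of higher clock genes from 8 to between 4 and 9, with 4 or 5 without any of mice 11, 12, 15, 16, 17, 18, 29, 34, 35 or 36, while 4 or 5 were lower each time. With transcript length offsets, 3 were higher and 5 lower. Without GKA, 7 of 16 clock genes were higher and 3 lower, with Dbp at 1.52 ± 0.32 and Bmal1 at -1.17 ± 0.41. There, Cry2 at 0.54 ± 0.10 (edgeR adjusted p = 0.0303) and Per3 at 1.38 ± 0.27 (edgeR adjusted p = 0.0462) passed the adjusted threshold.

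**Figure D5:**
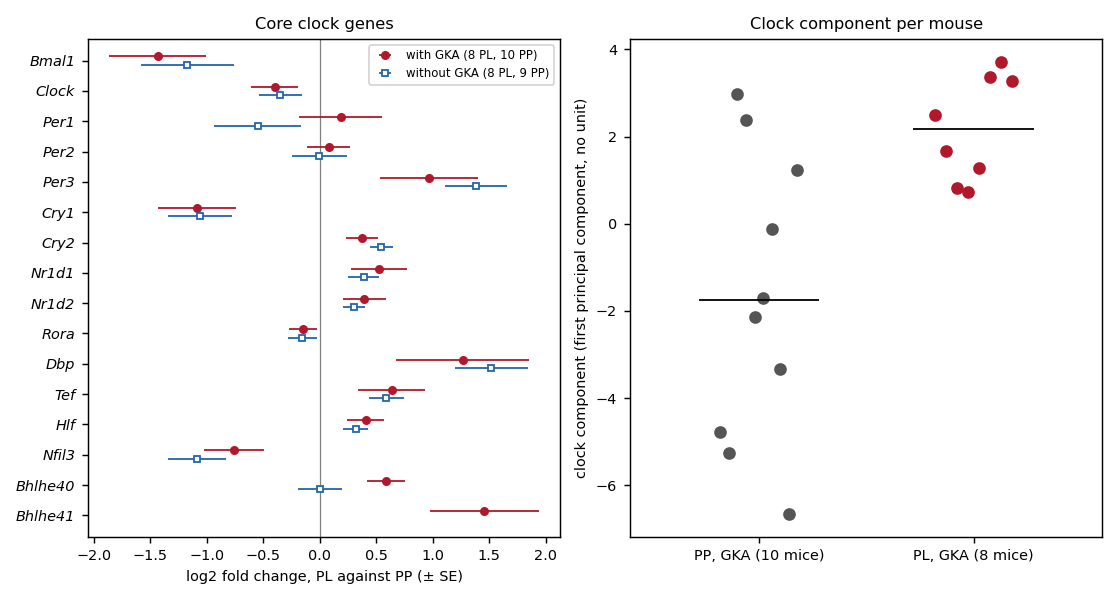
Left, log2 fold change of PL against PP (± SE) for core clock genes with GKA (filled circles) and without GKA (open squares, in separate mice). Right, the clock component of each mouse given GKA, with group means as lines. PP mice spread from -6.66 to 2.97 and PL mice lie between 0.74 and 3.71.

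Among single genes, the smallest p on the lower side belonged to Cdkn1a, the cell cycle inhibitor p21 (chromosome 17, 29309936 to 29319701). Cdkn1a ranged from 2.78 to 22.9 CPM in PP (median 9.53 CPM) and from 1.32 to 4.36 CPM in PL (median 2.58 CPM). All 8 PL mice were below 9 of the 10 PP mice, and the fold was 0.25 with an SE of 0.37 on the log2 scale (edgeR adjusted p = 0.113, DESeq2 adjusted p = 0.000107). Chka, choline kinase, ranged from 16.6 to 49.3 CPM in PP (median 32.1 CPM) and from 8.16 to 19.3 CPM in PL (median 14.4 CPM), a log2 fold change of -1.25 ± 0.24. Only PP mice 13 and 20 reached down into the PL range of Chka. The clock components of these mice, 2.97 and 1.24, were also within the PL range. With the clock component as a covariate, the smallest adjusted p of all genes was 0.344 in edgeR. Mtnr1a, a melatonin receptor, averaged 3.48 ± 0.783 CPM over PP mice and 1.82 ± 0.559 CPM over PL mice, a log2 fold change of -0.93 ± 0.19. Tsku, a secreted hepatokine, was at -1.23 ± 0.26 and Spon2, a secreted matrix protein, at -1.23 ± 0.27. Without GKA, PL against PP gave -1.55 ± 0.37 for Cdkn1a, -1.07 ± 0.30 for Chka and 0.10 ± 0.18 for Mtnr1a. On the higher side, the smallest p was that of Gjb2, the gap junction protein connexin 26 (chromosome 14, 57335919 to 57342240), with 113 to 153 CPM in PP (median 124 CPM) and 152 to 205 CPM in PL (median 168 CPM). Only PP mouse 14 was above the lowest PL mouse, and the log2 fold change was 0.43 ± 0.08 (edgeR adjusted p = 0.113, DESeq2 adjusted p = 0.000107). The RNA-binding protein gene Hnrnpdl was at 0.43 ± 0.09. Slc2a5, the fructose transporter GLUT5 (chromosome 4, 150196268 to 150228931), ranged from 1.27 to 5.46 CPM in PP (median 3.82 CPM) and from 5.47 to 11.6 CPM in PL (median 7.18 CPM). The lowest PL value of Slc2a5 was just above the highest PP value, and the log2 fold change was 0.98 ± 0.22 (adjusted p = 0.126). Rsad1 at 0.65 ± 0.13, the vesicle protein Syt1 at 0.83 ± 0.18, the nuclear receptor Nr2f2 at 0.53 ± 0.12, the lipid phosphatase Plpp3 at 0.45 ± 0.11 and coagulation factor F11 at 0.62 ± 0.15 were also among the 10 higher genes with the smallest p. Of the genes with the smallest interaction p, Mtnr1a had -1.03 ± 0.25, the splicing factor Cdc40 0.50 ± 0.13, the ubiquitin ligase subunit Fbxo33 0.79 ± 0.21, the Notch target Heyl -1.51 ± 0.40 and Tmc6 -0.76 ± 0.21 on the log2 scale, all with an edgeR adjusted p of 1.00. Heyl had few reads, with means of 0.83 CPM in PP and 1.4 CPM in PL without GKA, and 1.4 and 0.82 CPM with GKA.

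Acute phase genes were high in a pair of PL mice. Of 19 tested, 6 were higher and 0 lower at an unadjusted p below 0.05 (31.6%), with a median of 0.36. Saa2, serum amyloid A, ranged from 20.8 to 104 CPM in PP (median 62.6 CPM) and from 10.6 to 1066 CPM in PL (median 71.0 CPM), and the high values were 1066 CPM in mouse 31 and 806 CPM in mouse 32. Saa1 was at 1217 and 945 CPM in the same mice and at most 246 CPM in any other, and reads may be divided uncertainly between these near-identical genes. Apcs, Saa4, Serpina3n and Socs3, which dampens cytokine signalling, had log2 fold changes of 0.68 ± 0.30, 0.49 ± 0.19, 0.32 ± 0.15 and 1.28 ± 0.49. Without mice 31 and 32 the list median was -0.12 with 0 members at an unadjusted p below 0.05, and without mouse 31 alone it was 0.19 with 0 members, or without mouse 32 alone 0.24 with 1. Without mouse 11 or mouse 15, 3 members were at that threshold. Cyp3a11, a drug-metabolising enzyme, had 26.5 and 39.1 CPM in mice 31 and 32, between 168 and 586 CPM in the other PL mice and between 248 and 1344 CPM in PP. The Cyp3a11 log2 fold change was -1.23 ± 0.46, and that of Cyp2c29 was -0.64 ± 0.19. The part of these 2 mice in the cholesterol enzyme values is given above.

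Genes of glucose metabolism showed single differences rather than a shared one. Of the 18 genes that the study named as induced by glucokinase, a list it drew from hepatocytes overexpressing glucokinase and in part by overlap with mouse livers, so not independent evidence of a direction, 3 were higher and 4 lower at an unadjusted p below 0.05, with a median of 0.03. Klf10, a sugar-responsive transcription factor, averaged 12.4 ± 5.15 CPM in PP and 20.9 ± 6.01 CPM in PL, a log2 fold change of 0.74 ± 0.23. The arrestin Arrdc4 was at 0.52 ± 0.18 and the glucose transporter Slc2a2 at 0.23 ± 0.10. Among the lower were the monocarboxylate transporter Slc16a1 at -0.42 ± 0.15, Lhx6 at -0.68 ± 0.31 and Rnf144b at -0.34 ± 0.14. In the 12 glycogen genes, Ppp1r3b, which brings a phosphatase to glycogen, ranged from 91.2 to 250 CPM in PP (median 158 CPM) and from 66.1 to 129 CPM in PL (median 91.3 CPM). All 8 PL mice were below the PP mean of Ppp1r3b, with a log2 fold change of -0.84 ± 0.18 (edgeR adjusted p = 0.126, DESeq2 adjusted p = 0.00397), whereas Gys2, glycogen synthase, was at 0.34 ± 0.13. Igfbp1 and Igfbp2, binding proteins of insulin-like growth factors, went in opposite directions at -0.79 ± 0.34 and 0.58 ± 0.25. Gpd1, which makes glycerol 3-phosphate, was at -0.33 ± 0.13. None of the 19 lipogenic genes had an unadjusted p below 0.05 (median -0.00), and of 19 genes of lipid droplets and triglyceride turnover only Lipe, hormone-sensitive lipase, did, at 0.43 ± 0.17. Lipe was called in PL against PP without GKA, at 0.94 ± 0.14 (adjusted p = 0.0123). Of 24 PPAR-alpha targets, 4 were lower and 1 higher, namely Pdk4, the brake on pyruvate oxidation, at -1.28 ± 0.38, Acaa1b, a peroxisomal thiolase, at -0.51 ± 0.17, Ehhadh, of the same pathway, at -0.32 ± 0.15, Cyp4a31 at -0.70 ± 0.30 and the thioesterase Acot3 at 1.55 ± 0.59. The mean log2 CPM of these 24 genes was 6.495, 6.111 and 6.451 in PL mice 31, 32 and 33, between 7.09 and 7.48 in the other 5 PL mice and between 6.89 and 7.51 in PP. Without mice 31 and 32 together, 2 were lower and 1 higher and the median was -0.02, and 2 were lower without mouse 18, 32 or 33 alone, with the 6 groups in 1 fit, or with the clock component as a covariate. The summed adipose markers, of which 3 of 8 were tested, were at 1549 and 1769 CPM in mice 31 and 32 and between 2760 and 5237 CPM in the other 16 mice, and their part in the result was not tested. Of 12 bile acid genes, the bile acid receptor Nr1h4 at 0.25 ± 0.08 and the uptake transporter Slc10a1 at 0.56 ± 0.18 were higher at that threshold and 0 were lower.

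Some matrix and proliferation genes had lower mean values in PL. Of 14 stellate cell and matrix genes tested, 5 were lower (35.7%) and 0 higher at an unadjusted p below 0.05, with a median of -0.24. Col3a1, a fibrillar collagen, ranged from 8.33 to 50.1 CPM in PP (median 27.6 CPM) and from 7.40 to 30.3 CPM in PL (median 10.6 CPM), a log2 fold change of -0.99 ± 0.33. Mouse 29, which had the high macrophage sum, held the highest Col3a1 value in PL. Col1a1 and Col1a2 were at -1.16 ± 0.41 and -0.68 ± 0.32, the pericyte receptor Pdgfrb at -0.33 ± 0.16 and the proteoglycan Dcn at -0.25 ± 0.12. Leaving out single mice moved the count from 5 to between 2 and 8, with 8 without mouse 29, 2 without any of mice 14, 18, 20, 32, 33, 34 or 35 and 3 without any of mice 13, 16, 17 or 31. It was 3 without mice 31 and 32, 2 with all 6 groups in 1 fit and 1 with transcript length offsets. Of 8 cell cycle genes, Mki67 at -1.49 ± 0.52, Mcm2 at -0.63 ± 0.29 and Mcm6 at -1.07 ± 0.37 were lower at that threshold, and the PP mean of Mki67, 3.41 ± 3.47 CPM, held a value of 12.8 CPM in mouse 18. Of B and T cell markers 13 of 15 did not pass the filter. Ighm, of B cells, was at 12.1 ± 5.32 CPM in PP and 26.4 ± 17.6 CPM in PL, and the part of these cells in the other values was not tested. None of the 16 macrophage and 11 endothelial genes tested had an unadjusted p below 0.05.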

How the data were processed

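Liver RNA (integrity number above 6) was sequenced by the authors, who trimmed no reads and ran Salmon 1.4.0 on GENCODE M26 transcripts (GRCm39). The deposited files hold, per transcript, an estimated count that is not normalised and TPM, which Salmon scaled by effective length. Here, estimated counts of 137570 of 139225 transcripts were summed per gene (GENCODE vM39) and rounded. Groups came from the labels. Beside the genes marked in the text, exons of Scap, Tmem97, Hnrnpdl, Slc10a1, Junb and Alas2 overlap those of another expressed gene on the opposite strand.

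PL and PP with GKA were tested with edgeR 4.0.16 (R 4.3.3), using the quasi-likelihood test, TMM and filterByExpr. CPM are TMM-scaled. Calls are defined in the text. SE are on the log2 scale, computed as the log2 fold change over the square root of F, and ± after CPM is SD. PP mouse 7 was left out without GKA, as by the authors. Mice of a group may share litters, so p-values measure the spread between these samples. DESeq2 1.42.0, other scalings, filters and covariates were alternatives, and edgeR was tested on simulated data. Shares of Gckr reads were compared with exact permutation tests (SciPy 1.17.1). Chi-square per degree of freedom was at least 24.5 for every pair of mice within a group, so no pair of libraries was alike within sampling noise. Named genes were Gckr, the 10 higher and 10 lower with the smallest p, up to 5 each way called by DESeq2, the 5 with the smallest interaction p (predicted genes and pseudogenes passed over), and members of 41 gene lists with an unadjusted p below 0.05, or any member for cholesterol and clock genes. Some genes the rule takes are not reported here. Members and lists were chosen with earlier results of these data known. Promoters are from a RefSeq table (GRCm38.p6 starts) and were placed in GRCm39 by exact match.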

Additional observations from a re-analysis of the deposited data

Results flagged for a closer look

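Of 326 sets of values (named genes and marker sums on a log2 scale, gene list means, Gckr transcript shares, the clock component and totals, each in PL or PP with GKA), 14 (4.29%) had 1 mouse whose gap to the nearest other was large for the range of its group (Dixon's test), and chance gives about 1 in 20. In PL, mouse 30 was lowest for Ighm (2.18 CPM, median 21.8 CPM). PL mouse 33 was highest for Hspa8 (877 CPM, median 697 CPM) and Hspa5 (761 CPM, median 501 CPM). PL mouse 31 was highest for Slc1a2 (99.0 CPM, median 74.8 CPM), a pericentral glutamate transporter, and had the most reads (8093368). PL mouse 29 stood out by its macrophage sum of 1105 CPM (median 403 CPM) and PL mouse 35 by its blood sum of 1180 CPM (median 507 CPM). In PP, mouse 14 was lowest for Hmgcs1 (53.6 CPM, median 133 CPM), Slc10a1 (216 CPM, median 479 CPM) and Aldh1a1 (794 CPM, median 1464 CPM). PP mouse 18 was lowest for Hnrnpdl (16.5 CPM, median 23.1 CPM) and Saa4 (89.1 CPM, median 160 CPM), PP mouse 17 for Dnaja1 (133 CPM, median 186 CPM) and PP mouse 19 for Nr1d1 (11.2 CPM, median 46.9 CPM). No interaction of PL and GKA passed the adjusted threshold in edgeR.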

How the results depend on the processing

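The count of called genes, 0 in edgeR, stayed at 0 under every other scaling, filter, offset and covariate tried, and was 31 with DESeq2, 21 with all 6 groups in 1 fit (14 of them among the 31) and between 0 and 1 without single mice. The count at an unadjusted p below 0.05 was 1652 without a filter on low counts, where 23803 genes were tested, and between 695 and 1112 without single mice. DESeq2 called 3 interaction genes (Rps27a-ps3, Rpl9-ps4 and Gm43590, 2 of them pseudogenes). The core clock median was 0.045 with the clock component, by construction. Without mice 31 and 32, the log2 fold changes of Mvd (-0.12), Insig1 (-0.083), Saa1 (-0.59), Saa2 (-0.37) and Apcs (-0.10) turned. With the clock component they turned for Trib3 (-0.016), Bmal1 (0.16), Clock (0.20), Per1 (-0.39), Per2 (-0.23), Per3 (-0.083), Cry1 (0.23), Nr1d1 (-0.047), Nr1d2 (-0.14), Tef (-0.094), Nfil3 (0.078), Rnf144b (0.048) and Dnajb11 (0.029). With transcript length offsets they turned for Gckr (0.16), Ggps1 (0.042), Lss (-0.031), Lbr (0.044), Ebp (-0.25), Scap (-0.17), Mylip (-0.021), Nfe2l1 (0.12), Dnaja1 (0.035), Per2 (-0.42), Hlf (-0.014), Txnrd1 (0.16), Dnajb11 (0.26) and Alas2 (0.35), where the cause was not tested. Of 141 named genes, 110 kept their direction in all fits. Without single mice, 4 genes with log2 fold changes near 0 turned: Mylip lay between -0.107 and 0.165, Per1 between -0.07 and 0.385, Insig1 between -0.014 and 0.192 and Xbp1 between -0.008 and 0.148. The Gckr-207 share (PL minus PP) was -0.432 percentage points in TPM and between -1.23 and 1.192 without single mice. No paired analysis was possible because the groups share no mouse numbers.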

Other observations

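Several other gene groups gave values not described above. Of 17 genes of the NRF2 and glutathione list, Gclc, the first enzyme of glutathione synthesis, ranged from 187 to 479 CPM in PP (median 299 CPM) and from 111 to 288 CPM in PL (median 213 CPM), with a log2 fold change of -0.63 ± 0.21. Txnrd1, thioredoxin reductase, was at -0.24 ± 0.09. These were the 2 genes of the list lower at an unadjusted p below 0.05, with 0 higher and a list median of -0.24. With the clock component as a covariate, 8 were lower and 0 higher with a median of -0.40, and without mouse 36, 4 were lower. Of 12 immediate early genes, Junb at 0.70 ± 0.27 and Nr4a1 at 1.05 ± 0.49 were higher, and Ier5 at -0.70 ± 0.25 and Fosl2 at -0.53 ± 0.21 lower, at an unadjusted p below 0.05. Of glucocorticoid-responsive genes and metallothioneins, Mt1 was at 0.96 ± 0.44 and Zbtb16 at -1.17 ± 0.45. Gdf15, a stress hormone of the liver, averaged 6.45 ± 4.15 CPM in PP and 3.00 ± 1.23 CPM in PL, a log2 fold change of -1.09 ± 0.40.

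Pericentral genes were divided between Slc1a2 at 0.44 ± 0.13 and Aldh1a1 at -0.36 ± 0.14, with a list median of 0.14, and 0 of 16 periportal genes had an unadjusted p below 0.05. Of 20 interferon genes only Rsad2, at -0.41 ± 0.16, did. Of red blood cell genes, Hbb-bs was at 0.44 ± 0.20, Bpgm at 0.24 ± 0.11 and Alas2, whose sign turned with length offsets, at -0.17 ± 0.08. PL mouse 35 had a red blood cell sum of 1180 CPM, and its part in these values was not tested. Ribosomal protein genes (22 tested), nuclear respiratory chain genes (20), mitochondrial genes (13) and urea cycle and amino acid genes (18) had 0 members at that threshold, with medians of 0.09, 0.02, 0.12 and 0.14 on the log2 scale.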
